A study of Rattus norvegicus with 6 samples.

Results

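The D-type cyclins Ccnd1, Ccnd2 and Ccnd3, the kinases Cdk4 and Cdk6 that they activate, the kinase inhibitors Cdkn1a, Cdkn1b, Cdkn2a and Cdkn2b, and Rb1, the substrate of the kinases, were followed in BRL-3A cells, an established cell line derived from rat liver. These 10 genes were taken by name from a table of 30957 rat genes, and each name matched 1 row. Total RNA of 6 libraries was sequenced: 3 carried the label NC, an abbreviation the labels leave unexplained, and were used as controls, and 3 carried the label si-hnrnpa2b1, for an siRNA against the RNA-binding protein Hnrnpa2b1; these are called knockdown libraries below. The cells were grown in medium with fetal bovine serum, and the labels of all 6 libraries carry the same protocol, a lipid-mediated transfection of siRNA with harvest at 48 h. The labels give Sprague-Dawley as strain, liver as tissue and a disease of raised blood triglycerides as disease state for every library, so none of these differed between groups; the sources used here do not say whether the NC cells received an siRNA or which siRNA sequences were used. All libraries come from 1 cell line, and since separate cultures are not stated, the spread that p-values measure may be technical.

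D cyclins link growth signals to the cell cycle. They bind CDK4 or CDK6, the complex phosphorylates the retinoblastoma protein, and E2F transcription factors that this protein had restrained then switch on genes for DNA synthesis. Inhibitors of the INK4 family (the products of Cdkn2a and Cdkn2b) bind CDK4 and CDK6 directly, while those of the CIP/KIP family (the products of Cdkn1a and Cdkn1b) bind cyclin-CDK complexes, mainly those that act later in the transition from G1 to S phase. In the regenerating rodent liver, cyclin D1 is known for its induction as hepatocytes leave quiescence.

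The libraries held 13374412 to 15224108 counts. Levels are in CPM, the count relative to the library total, adjusted between libraries by TMM (trimmed mean of M-values) factors, and log2 fold changes are those of si-hnrnpa2b1 over NC. A gene is said to have risen or fallen where its p by the quasi-likelihood test of edgeR, adjusted over all 12261 tested genes after Benjamini and Hochberg, was below 0.05. The targeted gene was lower in every knockdown library: Hnrnpa2b1 had 953, 1064 and 1025 CPM in NC libraries and 662, 584 and 573 CPM in knockdown libraries. Of hepatocyte markers, Alb, Ttr, Hnf4a, Cps1 and 7 others of 21 gene models had 0 counts in all 6 libraries (3 counts, the limit a count of 0 allows, correspond to 0.197 to 0.224 CPM for counting error alone), so the label liver is not matched by the defining markers of hepatocytes. Arg1 and Tf of that list had means of 44.4 and 28.3 CPM in NC. One of 2 gene models named G6pc had 190.3 CPM and the other at most 0.42 CPM in any library; the identity of the first is uncertain, since RefSeq gives Psme3 as a synonym of the same gene. Of 14 markers of fibroblasts and stellate cells, led by Col1a1, Col3a1 and Vim, 10 were tested and 3 (Acta2, Des and Tagln) rose, beside 2.36% of all tested genes, while DESeq2 called 4; Col1a2 and Lrat were at 0. The summed level of that list was 15286 to 15675 CPM in NC and 15211 to 16180 CPM in knockdown libraries. Most of this sum was Col1a1, with a mean of 11773 CPM in NC. Thy1 and Reln had 1 and 5 counts over all 6 libraries, and Lum and Pdgfra had means of 0.625 and 1.13 CPM in NC. The part of this list in the results below was not tested. Lists of cholangiocyte, endothelial and leukocyte markers summed to 12.9 to 17.1, 46.9 to 53.5 and 15.5 to 19.9 CPM over the 6 libraries. Of their 8, 8 and 10 gene models, 2, 1 and 4 had 0 counts in all libraries, among them Epcam, Clec4g, Clec4f, Marco and Itgam. Other members were present, and 4, 5 and 2 had enough counts to be tested. In these 3 lists edgeR and DESeq2 each called 0 tested genes, and 1, 0 and 0 had an unadjusted edgeR p below 0.05, which was frequent over all tested genes.

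All 10 genes had enough counts to be tested. One of them, Ccnd1, rose after si-hnrnpa2b1, 0 fell, and 9 did not pass. Over all tested genes 5.30% changed, 2.36% upward and 2.94% downward; these were 650 genes, and 390, 380 and 379 with replicate 1, 2 or 3 of si-hnrnpa2b1 left out. The median log2 fold change of the 10 genes was 0.06, beside 0.00 for all tested genes; omitting 1 library moved it to between 0.0266 (NC replicate 1 omitted) and 0.134 (si-hnrnpa2b1 replicate 1 omitted). Groups did not overlap for Ccnd1 alone among the 10, while 23.4% of all tested genes had groups that did not overlap.

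**Figure D1:**
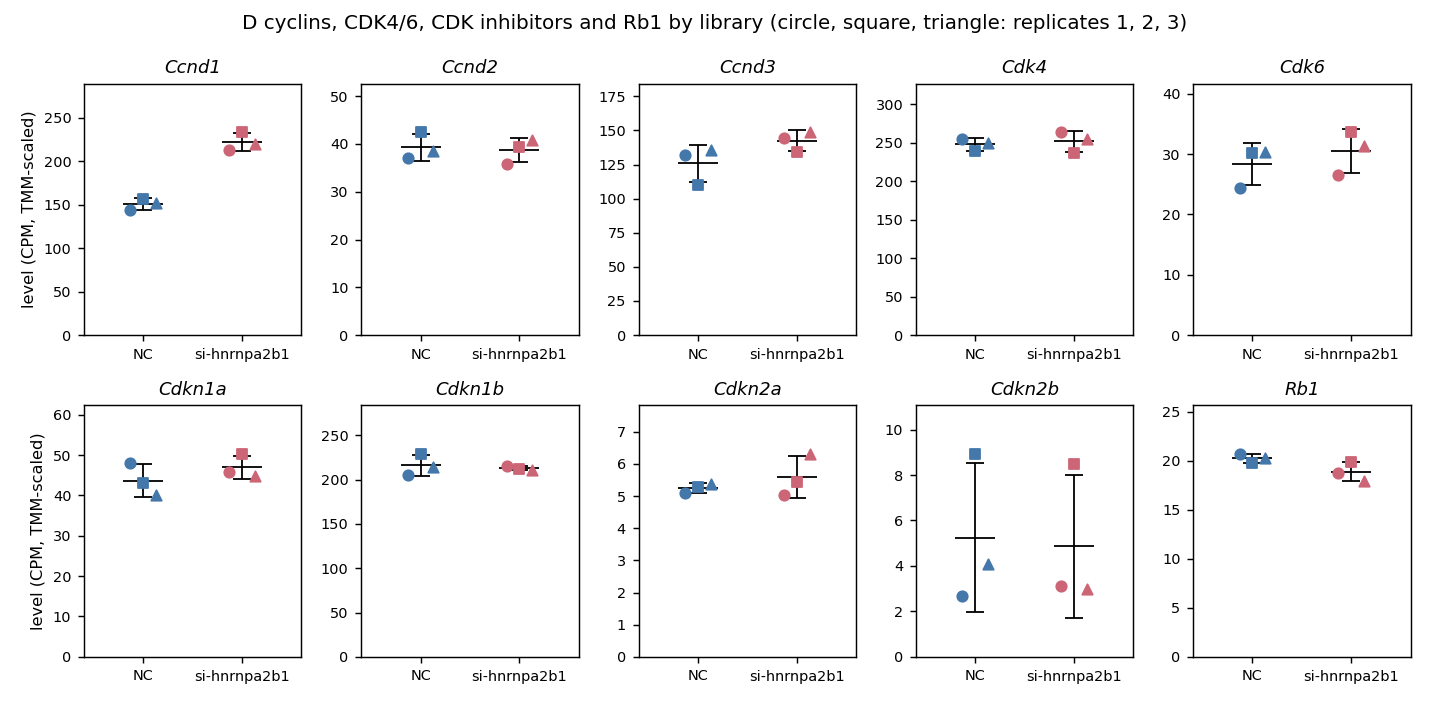
Level of each of the 10 genes in CPM (vertical axes, each starting at 0) in the 3 NC and 3 knockdown libraries; points are libraries, with 1 marker shape per replicate number, and the bar with whiskers is the mean ± SD. The knockdown values of Ccnd1 (213 to 233 CPM) lie above its NC values (143 to 157 CPM), and in Cdkn2b the library numbered 2 is the highest of each group.

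Ccnd1 encodes cyclin D1, the D cyclin most directly tied to growth factor signals (ENSRNOG00000020918, chromosome 1, positions 218090750 to 218100325 of Rnor_6.0). It had 143, 157 and 151 CPM in the NC libraries and 213, 233 and 219.8 CPM in the knockdown libraries. The lowest knockdown value was above the highest NC value. The mean went from 150.5 ± 6.82 to 222 ± 10.1 CPM (SD, n = 3 per group), a rise of 47.5% with a 95% interval of 36.9% to 59.0%. On the log2 scale this was 0.56 ± 0.05 (SE), with an adjusted p of 8.8e-06 by edgeR's quasi-likelihood test. Its p was the 14th smallest of the 12261 tested genes, and its fold change the 47th largest of the 289 genes that rose. The values rest on 2030, 2073 and 2250 counts in NC and 3213, 3437 and 3242 counts in knockdown libraries. In bulk libraries a higher level per cell and a larger share of cells with the transcript cannot be told apart. The call held under all 15 alternative settings, with log2 fold changes from 0.53 to 0.59.

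Ccnd2 encodes cyclin D2, which shares the kinase partners of cyclin D1 (ENSRNOG00000057710, chromosome 4, 159674885 to 159697207). Its NC libraries gave 37.0, 42.4 and 38.6 CPM and its knockdown libraries 35.9, 39.4 and 40.7 CPM. The groups overlapped, with a log2 fold change of -0.02 (95% interval -0.19 to 0.14; adjusted p = 0.92 by edgeR). A rise as large as that of Ccnd1 lies outside this interval.

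Ccnd3 encodes cyclin D3, the third D cyclin (ENSRNOG00000050258, chromosome 9, 15404822 to 15410943). It had 132, 110.0 and 135 CPM in NC and 145, 134 and 149 CPM in knockdown libraries. The lowest knockdown library fell below the highest NC library, and the second NC library stood lowest of all 6. The log2 fold change of 0.18 (95% interval 0.03 to 0.33) had an unadjusted p of 0.022 and an adjusted p of 0.18 by edgeR, so it did not pass. Without NC replicate 2 the log2 fold change was 0.09 (adjusted p = 0.42 by edgeR).

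**Figure D2:**
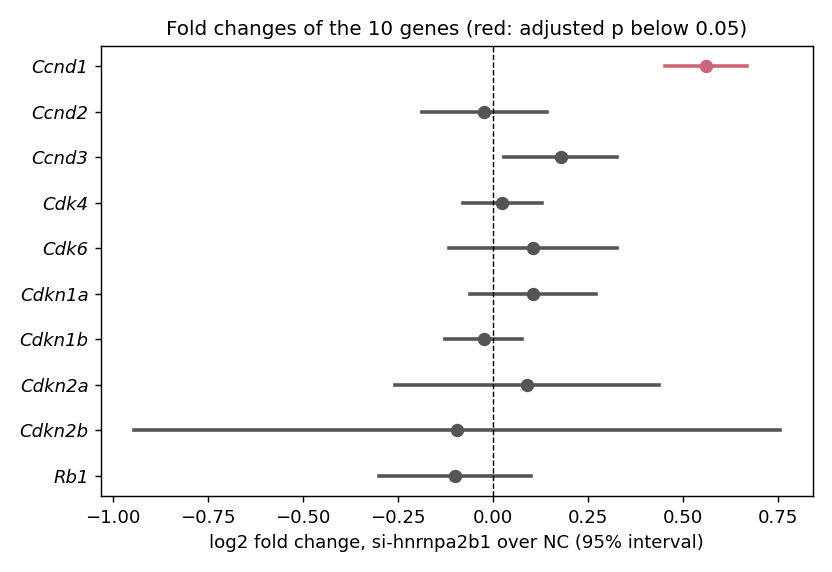
Log2 fold change of each of the 10 genes, si-hnrnpa2b1 over NC, from the edgeR fit; points are estimates, lines 95% intervals, and red marks an adjusted p below 0.05. The interval of Ccnd1 (0.45 to 0.67) lies above 0, that of Ccnd3 (0.03 to 0.33) just above 0 with an adjusted p of 0.18, and that of Cdkn2b is the widest (-0.95 to 0.76).

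Levels of different genes were compared per length, as the FPKM deposited by the authors (counts scaled to the length of the gene model and to the library total). In NC libraries Ccnd3 was the most abundant D cyclin with 66.0 ± 7.90 FPKM, followed by Ccnd2 with 27.8 ± 1.68 FPKM and Ccnd1 with 21.9 ± 0.807 FPKM (SD, n = 3), and no pair of neighbours overlapped. In knockdown libraries Ccnd3 had 74.4 ± 3.91 FPKM, Ccnd1 32.3 ± 1.65 FPKM and Ccnd2 27.3 ± 1.96 FPKM. By these values the order of Ccnd1 and Ccnd2 was exchanged between the groups. The FPKM ratio of Ccnd1 to Ccnd2 was 0.798, 0.761 and 0.809 in NC and 1.22, 1.22 and 1.11 in knockdown libraries, below 1 in every NC library and above 1 in every knockdown library. The ratio of Ccnd1 to Ccnd3 was 0.302, 0.397 and 0.311 in NC and 0.410, 0.484 and 0.412 in knockdown libraries, again without overlap. The order of the D cyclins, and the side of 1 on which a ratio lies, rest on the gene model lengths behind the FPKM: in CPM, which takes no account of length, Ccnd1 (143 to 233 CPM) was above Ccnd2 (35.9 to 42.4 CPM) in every library. The change of the ratio of Ccnd1 to Ccnd2 between groups does not depend on the lengths, which cancel. No test was run on these ratios.

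Ccnd1 made up 18.0%, 20.7% and 18.4% of the summed FPKM of the 3 D cyclins in NC libraries and 23.5%, 25.7% and 23.1% in knockdown libraries. The share of Ccnd2 was 24.1% ± 2.64 in NC and 20.4% ± 1.02 in knockdown libraries, and that of Ccnd3 56.9% ± 4.11 and 55.5% ± 2.13. The summed D-cyclin level was 117, 109 and 121 FPKM in NC and 131, 132 and 139 FPKM in knockdown libraries, without overlap. These shares depend on the length of the gene models, which the deposited values put at 6866 bases for Ccnd1, 1414 bases for Ccnd2 and 1911 bases for Ccnd3. As a share of summed CPM, which takes no account of length, Ccnd1 made up 47.7% in NC and 55.1% in knockdown libraries.

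**Figure D3:**
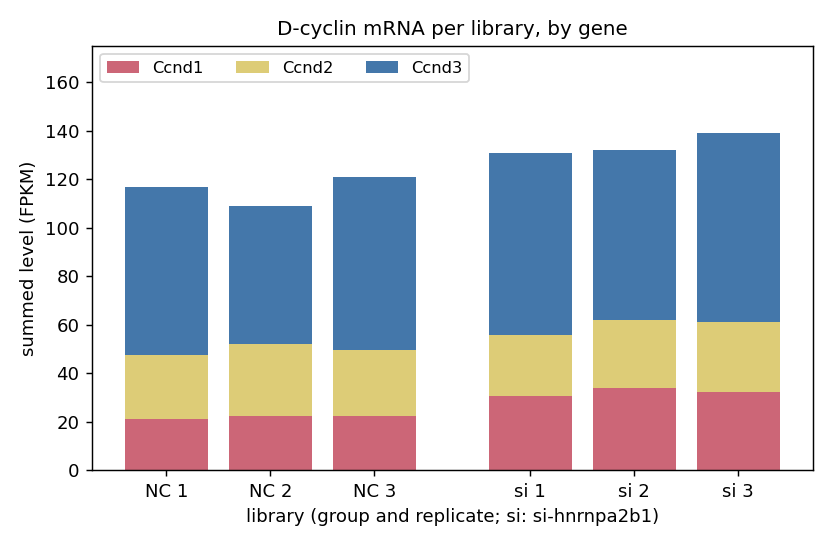
Summed level of the 3 D cyclins in FPKM (vertical axis, from 0) in each library (horizontal axis), stacked by gene. The Ccnd1 part is 21.03 to 22.6 FPKM in NC and 30.7 to 34.03 FPKM in knockdown libraries, and Ccnd3 is the largest part in every library.

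The kinases did not pass the test. Cdk4, a catalytic partner of the D cyclins (ENSRNOG00000025602, chromosome 7, 70349863 to 70352418), had 255, 239 and 249.8 CPM in NC and 264, 237 and 255 CPM in knockdown libraries. The groups overlapped throughout, and the log2 fold change was 0.02 (95% interval -0.08 to 0.13; adjusted p = 0.86 by edgeR). Its model overlaps that of Tspan31, which held 4584 counts against 21724 for Cdk4 and had a log2 fold change of -0.08 (adjusted p = 0.56 by edgeR). Cdk6, the alternative catalytic partner (ENSRNOG00000009258, chromosome 4, 27785647 to 27966398), had 24.4, 30.2 and 30.4 CPM in NC and 26.5, 33.6 and 31.4 CPM in knockdown libraries. The library numbered 1 was the lowest of each group, and the log2 fold change was 0.11 (95% interval -0.12 to 0.33; adjusted p = 0.66 by edgeR). Per length, Cdk4 was the most abundant of the 10 genes in both groups, with 272 ± 11.7 FPKM in NC, a level above that of 98.5% of tested genes. It took 93.5% ± 0.886 of the summed FPKM of Cdk4 and Cdk6 in NC and 93.1% ± 1.09 in knockdown libraries.

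The CIP/KIP inhibitors did not pass either. Cdkn1b, which encodes p27Kip1, an inhibitor typical of resting cells (ENSRNOG00000007249, chromosome 4, 168689163 to 168693964), had 206, 229 and 215 CPM in NC and 215, 212 and 211 CPM in knockdown libraries. All knockdown values lay within the NC range. With a log2 fold change of -0.02 its 95% interval, -0.13 to 0.08, was the narrowest of the 10 genes (adjusted p = 0.86 by edgeR). Cdkn1a, which encodes p21Cip1 and is a well-known target of p53 (ENSRNOG00000000521, chromosome 20, 6351458 to 6358864), had 48.0, 43.0 and 40.04 CPM in NC and 45.8, 50.2 and 44.9 CPM in knockdown libraries. The groups overlapped, with a log2 fold change of 0.11 (95% interval -0.06 to 0.27; adjusted p = 0.52 by edgeR). Per length Cdkn1b exceeded Cdkn1a in every library, by 6.55, 8.15 and 8.202 times in NC and by 7.18, 6.46 and 7.19 times in knockdown libraries. Cdkn1b was also the second most abundant of the 10 genes in both groups, at 123 ± 5.43 FPKM in NC. The FPKM ratio of Ccnd1 to Cdkn1b was 0.178 ± 0.00263 in NC and 0.267 ± 0.0138 in knockdown libraries (SD, n = 3).

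The INK4 inhibitors were the least abundant of the 10 genes per length. Cdkn2a encodes p16Ink4a and, from another reading frame, p19Arf, which the gene-level values do not separate (ENSRNOG00000059837, chromosome 5, 107823330 to 107841175). It had 5.08, 5.29 and 5.38 CPM in NC and 5.04, 5.42 and 6.31 CPM in knockdown libraries, from 70 to 93 counts per library. The groups overlapped, and the log2 fold change was 0.09 (95% interval -0.26 to 0.44; adjusted p = 0.84 by edgeR). Its neighbour Cdkn2b, which encodes p15Ink4b and is a target of TGF-beta signals (ENSRNOG00000006735, chromosome 5, 107845951 to 107858104), had 38, 118 and 61 counts in NC and 47, 125 and 44 counts in knockdown libraries. In CPM these were 2.68, 8.92 and 4.11 in NC and 3.12, 8.47 and 2.98 in knockdown libraries. The spread within each group exceeded the difference between groups: the SD was 62.5% of the mean in NC and 64.5% in knockdown libraries. The log2 fold change was -0.10, with a 95% interval from -0.95 to 0.76 (adjusted p = 0.94 by edgeR). Leaving out 1 library moved it from -0.76 to 0.51: it was 0.51 without NC replicate 2, and 0.14, -0.76 and 0.16 without replicate 1, 2 or 3 of si-hnrnpa2b1.

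Rb1, which encodes the retinoblastoma protein (ENSRNOG00000016029, chromosome 15, 55083140 to 55209342), had 20.7, 19.7 and 20.3 CPM in NC and 18.8, 19.9 and 18.0 CPM in knockdown libraries. The second knockdown library lay within the NC range, and the log2 fold change of -0.10 (95% interval -0.30 to 0.10) did not pass (adjusted p = 0.64 by edgeR). Its model overlaps that of Lpar6, which held 1560 counts against 1696 for Rb1, and the sources used here do not say how reads were divided; Lpar6 had a log2 fold change of -0.07 (adjusted p = 0.81 by edgeR). Apart from Ccnd1 and Cdkn2b, the 95% intervals of the 8 remaining genes together spanned -0.30 to 0.44, so the lower bound of the Ccnd1 interval, 0.45, was above the upper bound of each.

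In the order of levels per length, Cdk4, Cdkn1b and Ccnd3 were followed by Ccnd2, Ccnd1, Cdk6, Cdkn1a, Rb1, Cdkn2a and Cdkn2b in NC libraries. Neighbours overlapped for Cdk6 (19.0 ± 2.20 FPKM) and Cdkn1a (16.3 ± 1.57 FPKM), and for no other pair. Cdkn2b closed the order with 0.885 ± 0.543 FPKM, a level exceeded by all but 7.94% of tested genes. This order rests on the gene model lengths, which were 5897 bases for Cdkn2b and 1397 bases for Cdkn2a. In CPM, Cdkn2b and Cdkn2a had NC means of 5.24 and 5.25, and Ccnd1 (150.5) stood above Ccnd3 (125.8). Across the 6 libraries, the genes whose log2 CPM followed that of Ccnd1 most closely were Fstl1 (Pearson r = 0.996), Tmem194 (0.996) and Epha2 (0.995), a description over 6 points that share the split between groups. Fstl1, a secreted glycoprotein, rose from a mean of 768 to 859 CPM and Epha2, an ephrin receptor, from 94.5 to 114 CPM (adjusted p = 0.029 and 0.0056 by edgeR), while Tmem194 did not pass (adjusted p = 0.34 by edgeR).

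Among other genes of the G1 to S machinery, the share that changed was near that of all tested genes. These were 53 tested genes (of 54 models) for cyclins E and A with CDK2, further inhibitors, pocket proteins and E2F factors. The kinase that activates CDKs and the ubiquitin ligases that remove D cyclins and inhibitors were included. Of the 53 genes, 2 rose and 0 fell (3.77%, beside 5.30% of all tested genes), with a median log2 fold change of 0.07. Cryab, a small heat shock protein that also serves as a cofactor of an Fbxo4 ligase for cyclin D1, rose from 83.4 ± 7.07 to 112 ± 3.77 CPM (log2 0.43 ± 0.06, adjusted p = 7.9e-04 by edgeR). E2f7, an E2F factor that represses transcription, rose from 8.03 ± 0.431 to 11.1 ± 0.660 CPM (log2 0.46 ± 0.12, adjusted p = 0.042 by edgeR). That call was lost under 10 of 15 alternatives, among them DESeq2, the replicate block and the omission of any single library, with adjusted p up to 0.16.

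In the list of cyclins E and A with CDK2, edgeR and DESeq2 each called 0 of 7 tested genes, and 2 had an unadjusted edgeR p below 0.05. These were Ccne2, an E cyclin that activates CDK2, with 41.6 ± 2.51 CPM in NC and 49.6 ± 3.11 CPM in knockdown libraries (log2 0.25, adjusted p = 0.060 by edgeR), and Cdk2 itself, with 59.0 ± 7.53 and 69.6 ± 3.10 CPM (log2 0.24, adjusted p = 0.12 by edgeR). The model of Ccne2 overlaps that of Ints8. The further inhibitors Cdkn2c (p18Ink4c) and Cdkn1c (p57Kip2) had log2 fold changes of -0.29 and 0.03 (adjusted p = 0.30 and 0.98 by edgeR), on levels of 10.6 and 2.31 CPM in NC. Cdkn2d, another INK4 inhibitor of that list, matched no gene and so has no values here. E2f1, an activating E2F factor, had 23.6 ± 1.10 and 26.6 ± 1.33 CPM (log2 0.17, adjusted p = 0.31 by edgeR). E2f2 had 3.77 ± 1.44 CPM in NC and 5.86 ± 0.769 CPM in knockdown libraries (log2 0.63, adjusted p = 0.16 by edgeR) and did not pass either. Of the 5 genes for the CDK-activating kinase and CDK4 chaperones, edgeR and DESeq2 each called 0, and 1, the chaperone Hsp90ab1, had an unadjusted p below 0.05 (log2 0.11, adjusted p = 0.20 by edgeR). An unadjusted p below 0.05 was frequent over all tested genes as well, where the edgeR p of Ccnd3, 0.022, ranked 1546th.

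Some E2F target genes rose. Of 45 tested, 9 rose and 0 fell, beside 2.36% of all tested genes that rose and 2.94% that fell (5.30% changed). A log2 fold change above 0 was found for 42 of them, beside 49.6% of all tested genes. The list median was 0.17 (0.111 with NC replicate 2 omitted). Nasp, a histone chaperone, rose from 204 ± 2.94 to 248 ± 4.61 CPM (log2 0.28 ± 0.04, adjusted p = 8.7e-04 by edgeR). Cdc6, which loads the replicative helicase, rose from 31.1 ± 0.641 to 39.7 ± 0.610 CPM (log2 0.35, adjusted p = 0.0068 by edgeR). Both calls held under all 15 alternatives. The maintenance DNA methyltransferase Dnmt1 and the histone methyltransferase Ezh2 rose by 0.23 and 0.25 on the log2 scale (adjusted p = 0.011 and 0.022 by edgeR), calls lost under 4 and 6 alternatives. The number that rose was 4 with NC replicate 2 left out, 3, 3 and 2 with replicate 1, 2 or 3 of si-hnrnpa2b1 left out, and 2 or 3 by limma on log2 FPKM. Of the E2F targets that rose, E2f7 and Ezh2 also stand in other lists described here. The list shares further genes that did not pass, among them Ccne2, Cdk1 and E2f1 with the G1 to S genes. Pcna and Mcm2 are shared with the proliferation markers. Without the genes of the G1 to S list, 8 of 35 E2F targets rose (22.9%) and 0 fell.

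**Figure D4:**
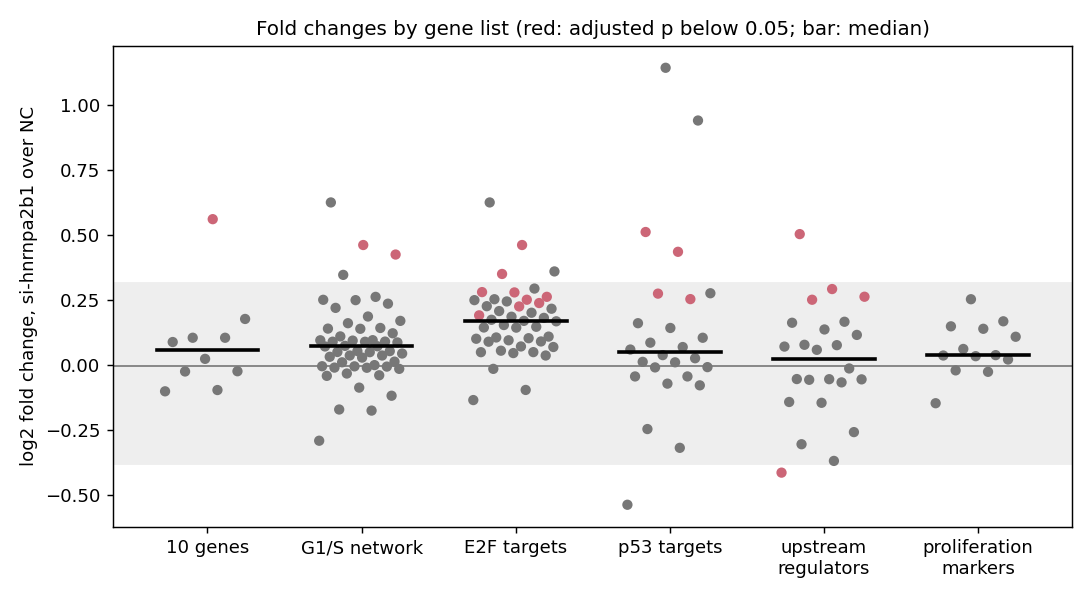
Log2 fold change (vertical axis) of each tested gene in 6 gene lists (horizontal axis), si-hnrnpa2b1 over NC; each point is a gene, red marks an adjusted p below 0.05, black bars are list medians, the grey line is the median of all tested genes and the grey band their 5th to 95th percentile (-0.38 to 0.32). Ccnd1 is the red point at 0.56 among the 10 genes, and the 9 red points of the E2F targets lie above 0.

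Markers of cycling cells did not pass. By edgeR and by DESeq2 0 of 13 tested proliferation markers changed, 5 had an unadjusted edgeR p below 0.05, and the median log2 fold change was 0.04. Unadjusted p of that size were frequent over all tested genes: the edgeR p of Ccnd3, 0.022, ranked 1546th of 12261. The markers with the smallest p were Mcm2, a subunit of the replicative helicase (log2 0.17, adjusted p = 0.076 by edgeR), the DNA polymerase clamp Pcna (0.25, adjusted p = 0.13), the mitotic kinase Aurkb (0.15, adjusted p = 0.18) and the mitotic cyclin Ccnb1 (-0.15, adjusted p = 0.21). Without NC replicate 1, Pcna passed (log2 0.35, adjusted p = 0.038 by edgeR).

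Among p53 targets other than Cdkn1a, 4 of 25 tested genes rose and 0 fell (16.0%, beside 5.30% of all tested genes changed and 2.36% rising), with a median of 0.04. These were the stress proteins Sesn2 (78.3 ± 8.09 to 112 ± 10.8 CPM, adjusted p = 9.2e-04 by edgeR) and Gadd45a (40.8 ± 0.434 to 55.2 ± 3.06 CPM, adjusted p = 9.2e-04 by edgeR), the kinase Plk2 (log2 0.27, adjusted p = 0.0065 by edgeR) and Phlda3, an inhibitor of Akt signalling (log2 0.25, adjusted p = 0.013 by edgeR). Sesn2 and Gadd45a are also known to be induced by ATF4. Cdkn1a itself and Mdm2, the ubiquitin ligase for p53, did not pass, with log2 fold changes of 0.11 and 0.16 (adjusted p = 0.52 and 0.14 by edgeR). Phlda3 did not pass once NC replicate 3 or replicate 1 or 3 of si-hnrnpa2b1 was left out.

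Of 24 tested regulators known to act on D cyclins or CDK inhibitors, Hnrnpa2b1 left out, 4 rose and 1 fell (20.8%, beside 5.30% of all tested genes, of which 2.36% rose and 2.94% fell), with a median of 0.02. Myc, a growth factor-induced transcription factor that activates Ccnd2 and Cdk4 and represses Cdkn1a in other systems, had 29.0, 30.2 and 26.99 CPM in NC and 41.4, 40.7 and 40.002 CPM in knockdown libraries. Its groups did not overlap, and it rose by 0.50 ± 0.07 on the log2 scale (adjusted p = 6.4e-04 by edgeR). Foxo4, of a family that activates Cdkn1b in other systems, fell from 62.2 ± 3.66 to 46.7 ± 3.10 CPM (log2 -0.41 ± 0.07, adjusted p = 0.0023 by edgeR). Klf4, a zinc finger factor known to activate Cdkn1a, rose from 129 ± 4.94 to 155 ± 7.89 CPM (adjusted p = 0.0077 by edgeR), which did not pass when si-hnrnpa2b1 replicate 3 was left out (adjusted p = 0.055; 2 regulators then passed). Mycn and Ezh2 were the remaining rises, and by limma on log2 FPKM 3 regulators passed. The call of Mycn (log2 0.29, adjusted p = 0.025 by edgeR) was lost under 6 of 15 alternatives, among them both limma fits and the replicate block.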

How the data were processed

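Per the file headers and values, the authors deposited raw counts, 1 whole number for each gene in each library. The FPKM deposited by the authors equal the count divided by 1 length per gene and the column total (within 0.00354% where counts exceed 20). HISAT2 2.0.4, StringTie 1.3.0, edgeR and the rat build Rnor_6.0 are named, per the submitters' processing notes, without role or order. The counting program, strand setting and treatment of shared reads are not stated in the sources used here. No column of per-sample values was left unused.

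The test was that of edgeR 4.0.16 (R 4.3.3): filterByExpr (minimum count 10, minimum total 15), TMM factors (0.989 to 1.01), a quasi-likelihood F-test, two-sided, without covariates, 12261 genes, and Benjamini-Hochberg adjustment with a threshold of 0.05. The SE was the size of the unshrunken log2 fold change divided by the square root of the F statistic. Intervals of 95% use this SE and a t distribution, so they are not evidence separate from the unadjusted p-values. The common biological coefficient of variation was 0.0638. The test, tried on simulated counts for 3 against 3 libraries (12255 genes), recovered 89.0% of changes of 0.5 and 99.0% of changes of 1 on the log2 scale. Whether these percentages hold for genes with few counts or with a larger coefficient was not tested. Estimated per gene, the coefficient was 0.322 for Cdkn2b, 0.090 for Cdkn2a and 0.084 for Cdk6. No replicate pair agreed within sampling noise (chi-square per degree of freedom 2.91 to 6.00).

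The 10 genes and the 14 gene lists were chosen with earlier results of these data known. Of 235 list entries 224 matched by symbol and 2 by another RefSeq symbol, while 8 did not match and 1 ambiguous alias was not used. Named are the 10 genes, Hnrnpa2b1, the 3 genes most correlated with Ccnd1, and per list up to 4 tested genes by smallest adjusted p. Cell type markers differ: of the hepatocyte list and the fibroblast and stellate cell list, the highest levels and those that changed are named. Mycn, Acta2, Des and Tagln and markers at 0 or at low levels were named after their values were seen. Alternatives were DESeq2 1.42.0, scaling by upper quartile, by relative log expression or by totals alone, no filter or at least 1 CPM in 3 libraries, limma 3.58.1 on log2(FPKM + 1) and log2(FPKM + 0.1), omission of each library, and the replicate number as a block. Some marker genes of other cell types are not reported here.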

Additional observations from a re-analysis of the deposited data

How the results depend on the processing

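Ccnd1 passed, and the 9 other genes of the 10 did not, under each of 15 alternatives; their smallest adjusted p was 0.093. Leaving out 1 library turned the sign of some small changes: log2 fold changes ranged from -0.065 to 0.034 for Ccnd2, -0.0091 to 0.068 for Cdk4, -0.059 to 0.018 for Cdkn1b, -0.0058 to 0.16 for Cdkn2a, -0.76 to 0.51 for Cdkn2b, -0.021 to 0.15 for Cdk1 and -0.17 to 0.38 for Cdkn1c. The number of changed genes over the whole table, 650 in the analysis reported, was 379 to 592 with 1 library left out, and 343 and 350 by limma on log2(FPKM + 1) and log2(FPKM + 0.1). For the G1 to S genes (2 reported) it was 1 with any library left out, by DESeq2, with the replicate block and by both limma fits. E2F targets (9) gave 2 to 9 with 1 library left out, and 2 and 3 by the limma fits. Regulators (5) gave 2 to 5 with 1 library left out and 3 by both limma fits, and proliferation markers (0) gave 0 to 1. Median log2 fold changes ranged, with 1 library left out, from 0.0401 to 0.0823 for the G1 to S genes, 0.0322 to 0.126 for p53 targets with Cdkn1a, 0.0341 to 0.0754 for proliferation markers and -0.00757 to 0.0182 for regulators. Fits with 1 library left out rest on fewer samples; for the others the cause was not tested. By share of summed CPM in place of FPKM, Ccnd1 made up 47.7% and 55.1% (NC and si-hnrnpa2b1), Cdk4 89.7% and 89.2%, and Cdkn1b 83.2% and 81.9%. Same-numbered libraries of the groups deviated together little: r across genes was 0.0571, -0.00390 and 0.0589 for replicates 1, 2 and 3. Libraries of different number gave r from -0.0926 to 0.0411. The numbers were not taken as pairs. With the replicate block 481 genes changed, and Ccnd1 had a log2 fold change of 0.56 (adjusted p = 1.7e-04 by edgeR). The depth limits Cdkn2a and Cdkn2b most, with 38 to 125 counts per library.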

Other observations

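Variation between replicates differed widely among the 10 genes. The biological coefficient of variation that edgeR estimated per gene was 0.0447 for Cdkn1b, 0.0462 for Cdk4 and 0.0472 for Ccnd1, and 0.322 for Cdkn2b. Of the 12261 tested genes, 21 had a higher estimate than Cdkn2b. From the lowest to the highest of the 6 libraries, Cdkn2b spanned 3.33-fold, Ccnd1 1.63-fold and each of the other 8 genes at most 1.38-fold. The neighbouring Cdkn2a had a spread of 1.251-fold. The libraries numbered 2 had the most Cdkn2b counts of each group, although over all genes the deviations of these 2 libraries had an r of -0.00390. No cause of this spread was tested.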
